A study of Mus musculus with 6 samples.

Results

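The comparison was between hearts of Trpm4 knockout mice and wild-type mice 24 h after the left anterior descending (LAD) artery was tied off, described across genes within each type of non-myocyte. Its members were the cells of the 2 libraries labelled with that condition that had at least 200 detected genes and at most 20% mitochondrial UMIs (unique molecular identifiers, the counted RNA molecules) and were not among the likely doublets. These were 9930 of the 32085 kept cells of the series, 3365 wild-type and 6565 knockout. Both groups were male mice of 8 to 12 weeks, the wild type of strain C57BL/6JRj and the knockout of strain B6.Cg-Trpm4tm1.2-PG. Hearts were digested with thermolysin and papain, sieved in a way that removes most cardiomyocytes and sorted for live cells by Calcein-AM and DAPI. Cells of 4 mice were pooled for each library and counted with 10x 3' chemistry, so there was 1 library a group, no replicate and no test. Genotype, strain source, operation, pool and library preparation cannot be told apart, and every interval below is a 95% interval for counting error only. Sham libraries taken at 24 h, wild-type and knockout, were read in the same way and are given as a reference.

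Trpm4 encodes a cation channel that opens when calcium rises inside the cell, lets sodium in and depolarises the membrane, which lowers the driving force for further calcium entry. In cardiac muscle and in immune cells it is known as a brake on calcium signals. In the first day after a coronary artery closes, dying muscle releases danger signals, neutrophils enter from the blood first, monocytes follow and become macrophages, and fibroblasts and vessels of the infarct border switch on alarm, stress and repair genes.

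The total UMI count was 23180056 in the wild-type library and 40501671 in the knockout library, and the kept cells had a median of 4164 and 3076 UMIs. The median share of mitochondrial UMIs per cell was 1.80% and 0.596%. Cells of all 6 libraries were clustered together into 32 clusters, 28 of which were named from marker genes. Only 3 barcodes occurred in both libraries. Each class carried its own markers in both: those of neutrophils summed to 148845 and 174847 CPM in neutrophils, those of monocytes and macrophages to 28779 and 32925 CPM in theirs, those of endothelial cells to 49460 and 45010 CPM and those of fibroblasts to 28493 and 22433 CPM, where CPM is counts per 1000000 UMIs of the class. Trpm4 was counted 119 times in the wild-type library and 125 times in the library labelled knockout. This gave 5.48 and 3.39 CPM over all kept cells, a ratio of 0.619 (0.478 to 0.803). The largest part came from monocytes and macrophages, with 7.73 and 4.58 CPM, and neutrophils held 2 Trpm4 UMIs in each library. Which exons the allele lacks is not given in the sources used here, and a 3' tag outside the deleted part checks nothing.

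The knockout library held relatively more myeloid cells and fewer vessel and connective tissue cells. Neutrophils made up 35.5% of the wild-type cells and 52.7% of the knockout cells, a difference of 17.2 percentage points (15.1 to 19.2). Monocytes and macrophages made up 20.8% and 24.0%, endothelial cells 20.1% and 10.6%, and fibroblasts 5.91% and 2.89%. With neutrophils and platelets left out of the denominator, monocytes and macrophages made up 35.1% of 1997 wild-type cells and 51.4% of 3061 knockout cells, and endothelial cells 33.9% and 22.7%. The share of platelets was 5.14% and 0.685%, but these are shallow barcodes, and over cells with at least 1500 UMIs their difference was only -0.15 points. Shares of 1 library depend on one another, so more neutrophils and fewer of the other cells cannot be told apart.

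**Figure D1:**
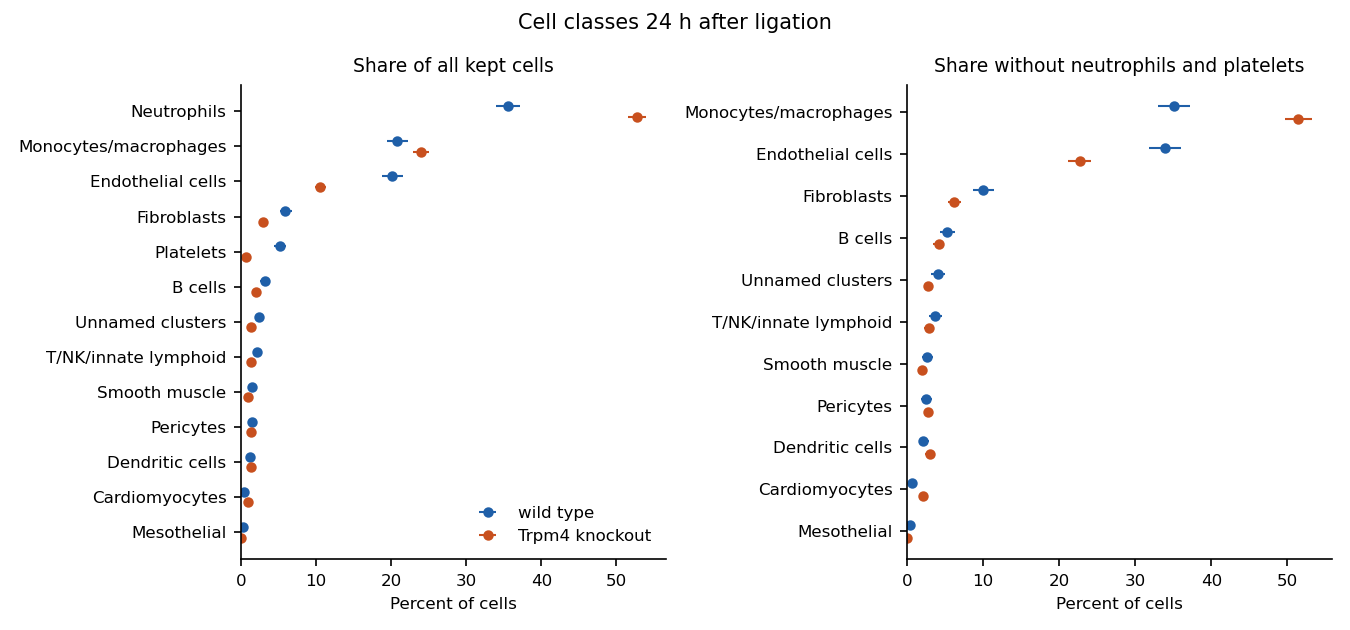
Share of each cell class in percent of the kept cells (left) and of the kept cells without neutrophils and platelets (right) for the wild-type (blue) and knockout (orange) library; bars are exact 95% binomial intervals. Neutrophils stand at 35.5% and 52.7% on the left, and monocytes and macrophages at 35.1% and 51.4% on the right.

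Within the classes, most neutrophils lay in a cluster led by Il1r2, Cxcr2 and S100a8, with 84.5% of wild-type and 83.0% of knockout neutrophils. A cluster led by Ccrl2, Siglecf and Tnf held 6.36% and 7.03%. The 1195 wild-type and 3459 knockout neutrophils split less evenly in a finer clustering (Leiden resolution 2). There a cluster led by Lcn2, Wfdc21 and S100a8 held 294 and 1872 cells. Another, with Cish, Egln3, Cd177 and Ccl4 among its leading genes, held 543 and 664. Genes described below are among these leading genes, and the part of this split in them was not tested. Among monocytes and macrophages, a cluster led by Ccl24, Arg1 and Spp1 held 60.4% and 59.1%, and a cluster led by Plac8 and Ly6c2 held 20.9% and 21.4%. The cluster led by Lyve1, Folr2 and Cd163 held 8.57% and 6.35%, and the Cd74 and H2-Aa cluster, rich in antigen presentation genes, 6.71% and 10.9%. Of the 700 and 1574 cells of this class, the mix of states differed more at resolution 2. There a cluster led by Ccl2, Ccl7, Arg1 and Spp1 held 292 and 827 cells, and one led by Ccl24, Saa3 and Ltc4s held 118 and 95. The part of this mix in the gene differences below was not tested. Of the endothelial cells, a cluster led by Aqp1 and Timp4 held 35.0% and 39.9%, one led by Rbp7 and Hey1 22.7% and 25.2% and one led by Vwa1 and Col4a1 42.2% and 34.9%. The fibroblasts split into a Clec3b and Dcn cluster of 136 and 107 cells (68.3% and 56.3%) and a Cxcl5, Ptx3 and Timp1 cluster of 60 and 79 cells (30.2% and 41.6%).

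For each gene, UMIs were summed over the cells of a class and scaled to CPM. A gene counted as measured with at least 50 UMIs over the pair of libraries. It was called higher or lower in the knockout when the levels differed at least 1.5-fold, the counting interval of the ratio lay on 1 side of 1, at least 10 barcodes of the higher library held it and no barcode held over 20% of its UMIs. Ratios are given as log2 of knockout over wild type, so negative values are lower in the knockout. The interval is taken for each gene with no adjustment over genes, so some calls, above all at low counts, can be counting error. The barcode rule removed genes whose difference sat in 1 or a few cells. Of the 2188 Camp UMIs in knockout macrophages 99.9% came from 1 barcode, as did 99.7% of the 3774 Hbb-bs UMIs in knockout endothelial cells. In wild-type fibroblasts, 1 barcode held all 397 Ccl5 UMIs.

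**Figure D2:**
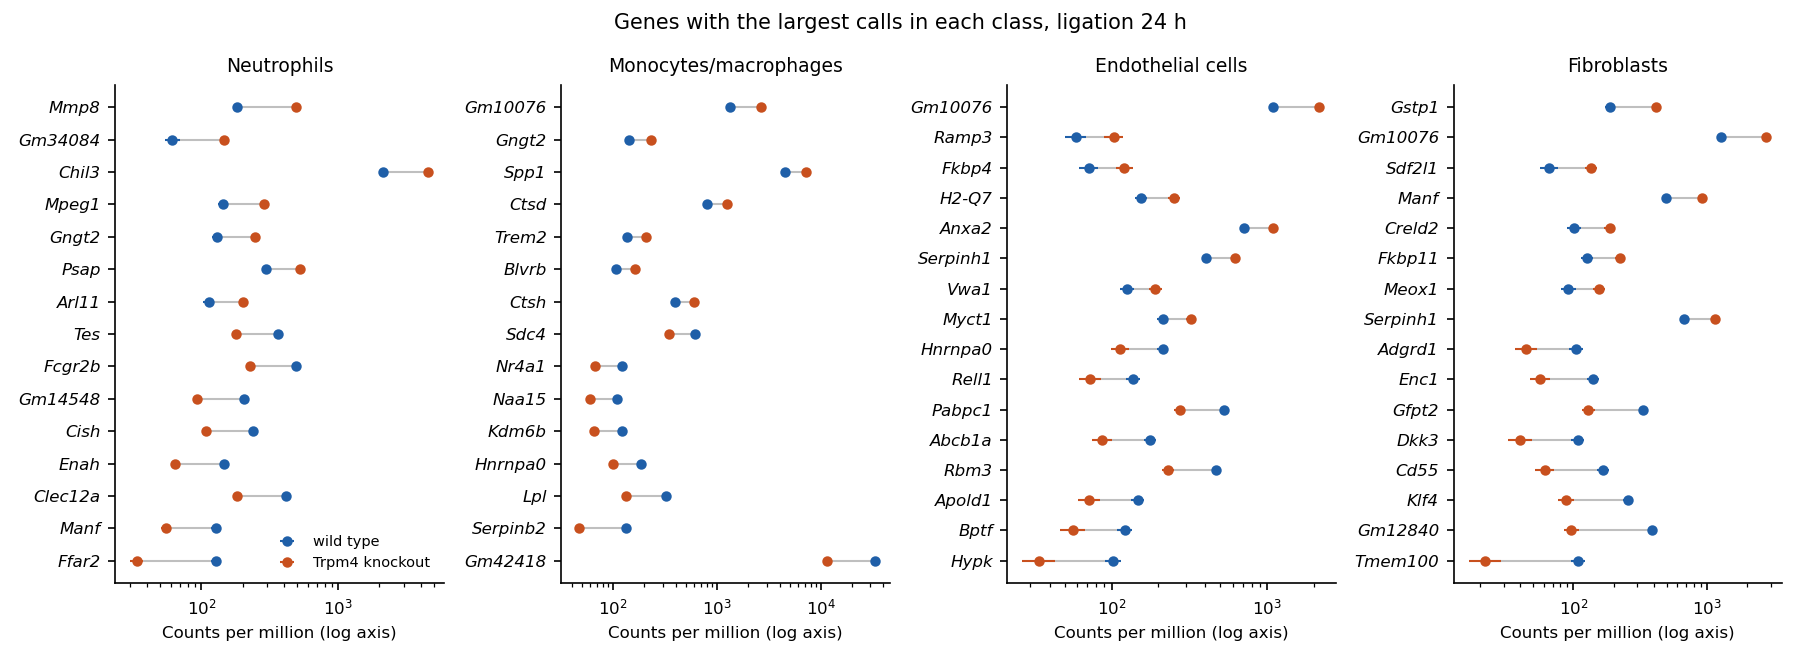
Level in CPM (log axis) in wild-type (blue) and knockout (orange) cells of up to 8 of the highest and 8 of the lowest called ratios in each of 4 classes, among genes with at least 100 CPM; horizontal bars are exact 95% Poisson intervals. Ffar2 in neutrophils (127 and 33.8 CPM), Gm42418 in macrophages (32982 and 11388 CPM) and Tmem100 in fibroblasts (108 and 21.8 CPM) have the lowest ratios and stand at the bottom of their panels.

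In knockout neutrophils 10 of 20 protein-folding genes and 7 of 26 low-oxygen and sugar-use genes were lower, while granule and alarm genes were called in both directions. Mmp8, the neutrophil collagenase, stood at 183 CPM in the wild type and 489 CPM in the knockout, and Chil3, a chitinase-like lectin, at 2134 and 4538 CPM. Ffar2, the receptor for short-chain fatty acids, fell from 127 to 33.8 CPM, and Clec12a, an inhibitory receptor that senses uric acid crystals, from 412 to 181 CPM. In all, 500 of 7417 measured genes were higher (6.74%) and 386 lower (5.2%), with a median log2 ratio over all genes of 0.04. At sham, 166 of 5079 genes were higher (3.27%) and 125 lower (2.46%).

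The log2 ratio was 1.42 for Mmp8 (1.31 to 1.53) and 1.09 for Chil3 (1.06 to 1.12). The same genes were higher in knockout neutrophils of sham hearts, by 1.42 and 1.13, although their sham levels were lower, with Mmp8 at 79.4 and 212 CPM and Chil3 at 390 and 852 CPM. Lcn2, an iron-binding granule protein, went from 3054 to 4896 CPM. The dominant alarm proteins were not called: S100a8 stood at 59735 and 79532 CPM and S100a9 at 69539 and 75322 CPM. Of 21 measured granule and alarm genes, 5 were higher and 4 lower, with a median of 0.15. The lower ones included Cd177, a surface protein of neutrophils, at 535 and 314 CPM, and Wfdc17 at 5466 and 3476 CPM. Other higher genes were Mpeg1, a pore-forming protein of phagosomes (143 and 285 CPM), Psap, a lysosomal protein (295 and 527 CPM), Gngt2 (129 and 248 CPM), Arl11 (113 and 201 CPM) and Gm34084 (61.5 and 146 CPM).

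Genes for cytokines and chemokines were lower or near level in neutrophils. Cxcl3, a ligand that draws further neutrophils, fell from 4953 to 2840 CPM, Ccl4 from 3092 to 1927 CPM and Il1a from 94.5 to 40.4 CPM. Il1b and Cxcl2, the most abundant of the list, were not called, at 12740 and 11936 CPM and at 22648 and 16598 CPM. Of the 17 measured inflammatory ligands and enzymes, 4 were lower and 2 higher, with a median of -0.31. The higher ones were Ccl2 (29.6 and 73.8 CPM) and Ccl7 (13.5 and 22.4 CPM), whose levels in monocytes and macrophages were far above those in neutrophils. The 22 monocyte and macrophage markers summed to 3152 and 5827 CPM in neutrophils with none at 0, Chil3 being the leading one, and their part in these results was not tested. Among the 13 members whose level in neutrophils was at least 0.25 of that in their highest class, 4 were lower and 0 higher, with a median of -0.39. Of 21 NF-kB subunits and feedback genes, 4 were lower (Nfkb1, Zc3h12a, Traf1 and Sod2), and of 20 receptors that guide neutrophils into tissue 0 were called in either direction, with Cxcr2 at 1867 and 1592 CPM.

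Most low-oxygen and sugar-use genes had a ratio below 1, with 6 of 26 above it and a median of -0.33. Egln3, an oxygen-sensing hydroxylase that low oxygen induces, went from 349 to 175 CPM, Hk2, a hexokinase, from 317 to 187 CPM, and Ero1l, an oxidase of the endoplasmic reticulum, from 293 to 169 CPM. Aldoa and Pkm, enzymes further along sugar breakdown, were not called and are among those above 1, at 951 and 1151 CPM and at 1045 and 1239 CPM. Of 26 measured members 7 were lower and 0 higher. This held in the main neutrophil cluster, with 7 of 26 lower, and in the Siglecf cluster, with 8 of 21 lower and a median of -0.64. In the Retnlg cluster of 109 and 344 cells, 4 were higher and 2 lower of 21, with a median of 0.40.

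Protein-folding genes of the endoplasmic reticulum were also lower in knockout neutrophils. Manf, a folding factor that stress in this compartment induces, fell from 127 to 55.1 CPM (log2 ratio -1.21). Hspa5, its main chaperone, fell from 629 to 359 CPM, and P4hb, a disulfide isomerase, from 191 to 97.4 CPM. Of the 20 members of this list 10 were lower and 0 higher, with a median of -0.60, against 1 higher and 0 lower at sham. This list was drawn up after its members had been seen to differ, so its count only describes it. The RNAs of the mitochondrial genome were called lower in 12 of 12 cases, with mt-Co1 at 1204 and 774 CPM and a median of -0.79. Mitochondrial RNAs made up 0.475% and 0.288% of all UMIs of the class. At sham 0 of the 12 were called. None of these 12 reached 0.25 of its level in the class where it is highest. The remaining low genes were Enah, an actin regulator (147 and 64.6 CPM), Tes (362 and 179 CPM), Gm14548 (205 and 93.5 CPM), Fcgr2b, the inhibitory antibody receptor (491 and 227 CPM), and Cish, a feedback inhibitor of cytokine signalling (239 and 107 CPM). Clec12a held its difference in the main cluster and stood at -0.18 in the Siglecf cluster and -0.09 in the Retnlg cluster. Of 10 genes with the highest or lowest ratios measured in each of the 3 clusters, 8 had the same direction in all of them, with Fcgr2b and Mpeg1 as the exceptions.

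Monocytes and macrophages of the knockout had less RNA for some induced cytokines and for immediate-early genes. Most of these cytokines were at a higher level in neutrophils or other cells. The monocyte-attracting chemokines were near level, and genes of lipid-handling and repair macrophages were called in both directions. Ccl4, a chemokine for T cells and monocytes whose level was higher in neutrophils, was at 592 CPM in the wild type and 238 CPM in the knockout. Il6, a cytokine of acute inflammation, was at 42.0 and 9.77 CPM. Spp1 (osteopontin), a matrix and macrophage protein of wounds, rose from 4561 to 7230 CPM, and Lpl (lipoprotein lipase) fell from 320 to 135 CPM. In this class 155 of 9983 measured genes were higher (1.55%) and 740 lower (7.41%), with a median over all genes of -0.12. Scaled so that the median gene has a ratio of 1, the split was 357 higher and 370 lower. At sham, 338 of 9911 genes were higher (3.41%) and 119 lower (1.2%).

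Several of these ligand genes have a match to the kappaB motif of NF-kB close to their start. The stretches are shown for the 5 list members with a match. Of these, 3 are among the lower genes described next, beside 11 of 20 over the measured list. The kappaB motif, GGG then any 2 bases then TTTCC, searched on both strands from 250 bases before to 50 bases after the gene start, was found for 5 of the 14 list members with a RefSeq promoter, against 1.62% of 27025 promoters. Bases of a match are in capitals, and a match describes letters only. The sequences are from RefSeq on GRCm38.p6, Il6 at chr5:30013040-30013109 (+), Cxcl2 at chr5:90903772-90903860 (+), Cxcl3 at chr5:90785998-90786067 (+), Cxcl1 at chr5:90891126-90891213 (+) and Csf1 at chr3:107760584-107760653 (-), each written 5′ to 3′ on the gene's strand.
Il6: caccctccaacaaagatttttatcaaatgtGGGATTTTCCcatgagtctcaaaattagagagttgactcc
Cxcl2: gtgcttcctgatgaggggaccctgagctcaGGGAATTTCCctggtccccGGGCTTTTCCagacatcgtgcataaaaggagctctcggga
Cxcl3: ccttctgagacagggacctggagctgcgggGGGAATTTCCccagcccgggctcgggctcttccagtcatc
Cxcl1: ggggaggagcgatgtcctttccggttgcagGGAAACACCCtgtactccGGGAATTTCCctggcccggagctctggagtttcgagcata
Csf1: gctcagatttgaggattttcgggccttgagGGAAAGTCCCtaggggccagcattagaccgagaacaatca

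Of the 20 measured inflammatory ligands and enzymes, 11 were lower in knockout monocytes and macrophages and 0 higher, with a median of -0.74. The lower ones among the genes with a printed stretch were Il6 (log2 ratio -2.10, -2.36 to -1.85), Csf1, the macrophage growth factor (15.2 and 7.94 CPM), and Cxcl2 (3170 and 2096 CPM). Cxcl3 was not called, at 2221 and 1856 CPM, and Cxcl1 failed the barcode rule, at 50.6 and 11.7 CPM. Nos2, the inducible nitric oxide synthase, went from 31.3 to 11.1 CPM, Ptgs2, the inducible cyclooxygenase, from 123 to 63.2 CPM, and Ccl3 from 309 to 178 CPM. Il1rn, the blocker of the interleukin-1 receptor, went from 173 to 107 CPM and Osm from 265 to 166 CPM. The ligands of CCR2 that draw monocytes were among those not called, with Ccl2 at 5128 and 5064 CPM, Ccl7 at 1920 and 1754 CPM and Ccl12 at 582 and 546 CPM.

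In the Arg1 and Spp1 cluster 10 of 20 members were lower and 0 higher, with a median of -0.87. In the Ly6c2 monocyte cluster 2 of 14 were lower and 1 higher, and in the Lyve1 cluster 0 of 13 were lower and 1 higher. Whether the clusters differ was not tested. Most members were at a higher level in neutrophils or other cells. In 7 members the level in monocytes and macrophages was at least 0.25 of that in their highest class. Of these, 2 were lower (Il6 and Nos2) and 0 higher. Their median was -0.13, near the -0.12 over all genes of the class. The neutrophil markers summed to 2263 CPM in wild-type and 3139 CPM in knockout macrophages, with none of the 10 at 0, and their part in these values was not tested. At sham the same list had 6 higher and 0 lower of 18, with a median of 0.22. When the 2 libraries were clustered alone, 351 and 767 cells led by Spp1, Ccl24 and Arg1 carried no class name, because the platelet markers Pf4 and Ppbp were among their leading genes, and without them the class had 545 genes lower and an inflammatory median of -0.66. Platelet markers summed to 3679 and 4836 CPM in the class as used here.

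**Figure D3:**
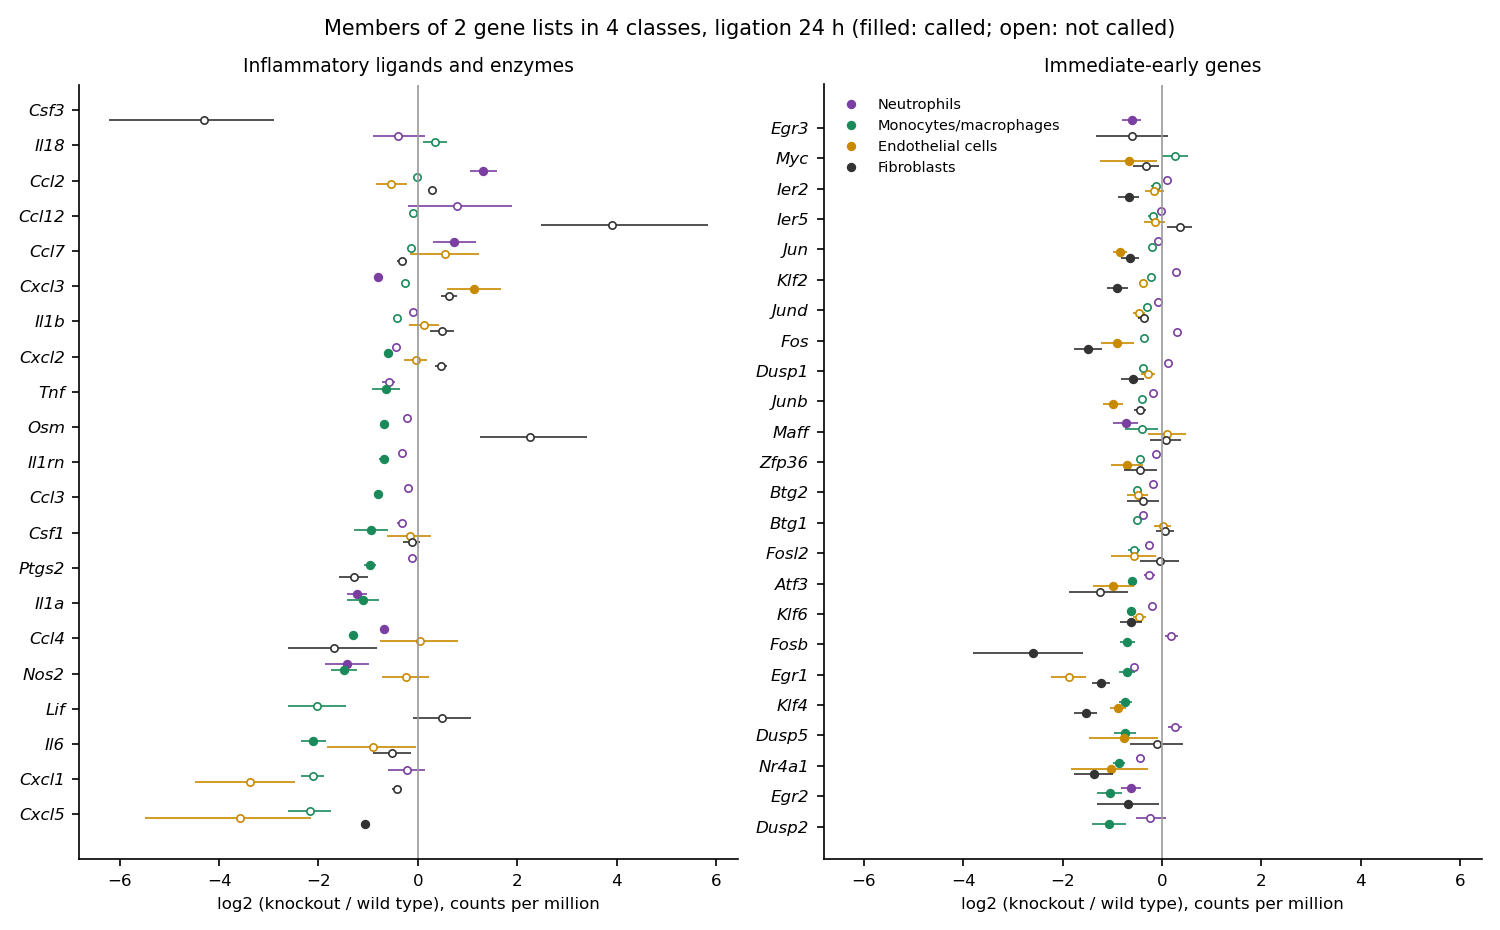
Log2 ratio of knockout to wild type in CPM for the measured members of 2 gene lists in neutrophils (purple), monocytes and macrophages (green), endothelial cells (yellow) and fibroblasts (black), with 95% counting intervals; filled points were called and open points were not. Il6 in monocytes and macrophages lies at -2.10 and Fos in fibroblasts at -1.49, while Ccl2 in monocytes and macrophages lies at -0.02.

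Immediate-early genes are transcribed within minutes of a stimulus, wound or cell isolation. In monocytes and macrophages 9 of 23 were lower and 0 higher, with a median of -0.51, among them Nr4a1, a nuclear receptor (123 and 67.6 CPM), Klf4 (91.7 and 55.1 CPM) and Egr1 (68.5 and 42.1 CPM). Fos and Jun were not called, at 1280 and 991 CPM and at 505 and 437 CPM. The median was -0.52 in the Arg1 and Spp1 cluster, -0.41 in the Ly6c2 cluster and -0.47 in the Lyve1 cluster, and -0.10 over the class at sham. Kdm6b, a histone demethylase, was lower too (121 and 65.2 CPM), as were Sdc4, a heparan sulfate proteoglycan (610 and 342 CPM), and Naa15 (109 and 59.5 CPM).

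The genes of lipid-handling and repair macrophages moved in both directions, with 3 higher and 4 lower of 19 and a median of 0.11. Spp1 had a log2 ratio of 0.66 (0.65 to 0.68), Ctsd, a lysosomal protease, went from 798 to 1257 CPM and Trem2, a lipid receptor, from 137 to 210 CPM. On the lower side, beside Lpl, Vegfa fell from 67.9 to 33.5 CPM and Abca1, the cholesterol exporter, from 98.2 to 64.3 CPM. Fabp4, which endothelial cells make in great amounts, was at 90.3 and 22.8 CPM beside endothelial markers that summed to 127 and 42.2 CPM in this class. Arg1, the arginase of repair macrophages, was level at 3486 and 3509 CPM. Other higher genes were Ctsh, a lysosomal protease (398 and 605 CPM), and Blvrb, a biliverdin reductase (106 and 162 CPM). Each of the 15 genes with the highest or lowest ratios measured in all 3 clusters of at least 50 cells had the same direction in all of them.

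Of 8 measured genes of MHC class II antigen presentation, 3 were higher and 0 lower in the knockout, with a median of 0.50. None of the 8 reached 0.25 of its level in the class where it is highest. Dendritic cell markers, led by Cst3, summed to 1724 and 2050 CPM in monocytes and macrophages, and their part was not tested. H2-Ab1 stood at 270 and 462 CPM and Cd74 at 1246 and 1926 CPM. The cluster rich in these genes had 47 wild-type and 171 knockout cells, and with clusters weighted equally in both libraries the median was 0.06. Within the Arg1 and Spp1 cluster 2 of 6 were higher and 0 lower, with a median of 0.38. Within the Ly6c2 and Lyve1 clusters none was called, and the medians were -0.47 and -0.12. Serpinb2, an inhibitor of urokinase, was lower after ligation (132 and 47.2 CPM, in 77 and 105 cells) and higher at sham (44.7 and 164 CPM), and the difference was not tested. Among 29 measured genes of calcium entry and release, 6 were lower (Trpm4, Trpm7, Pkd2, Atp2a3, Rcan1 and Nfatc2) and 1 higher, the calcium-activated potassium channel Kcnn4 (18.0 and 30.5 CPM). Rcan1, a feedback inhibitor induced by calcineurin, went from 19.8 to 10.7 CPM.

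Endothelial cells of the knockout had lower immediate-early and clock gene RNA, while adhesion molecules and capillary genes were mostly near level. Junb, a partner of Fos, stood at 281 and 142 CPM, and Klf4, a factor induced by shear stress, at 408 and 222 CPM. Apold1, an endothelial gene that stress induces, went from 148 to 72.0 CPM. In all, 177 of 7977 measured genes were higher (2.22%) and 483 lower (6.05%), with a median of -0.07. At sham 172 of 10540 were higher (1.63%) and 283 lower (2.69%).

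Of 20 measured immediate-early genes 9 were lower and 0 higher, with a median of -0.61 after ligation and 0.13 at sham. Jun went from 485 to 271 CPM and Fos from 95.6 to 51.5 CPM. Egr1, at 144 and 39.2 CPM, was not called because 1 barcode held over 20% of its UMIs. The median was -0.36 in the cluster led by Aqp1 and Timp4, -0.62 in the cluster led by Rbp7 and Hey1 and -0.43 in the cluster led by Vwa1 and Col4a1. Klf2, the most abundant member, was not called, at 1762 and 1346 CPM.

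Of 10 adhesion and junction genes 1 was lower, Icam1, which binds leukocyte integrins (83.9 and 49.5 CPM), with Pecam1 at 795 and 821 CPM and Vcam1 at 24.9 and 21.6 CPM. Of 17 lipid-uptake and capillary genes 0 were called in either direction, with a median of 0.02. Abcb1a, a drug efflux pump, fell from 177 to 87.2 CPM, Rbm3, an RNA-binding protein induced by cold, from 470 to 230 CPM and Pabpc1, which binds the poly(A) tail, from 528 to 274 CPM. The other low genes were Hypk (102 and 34.3 CPM), Bptf, a chromatin remodeller (122 and 56.4 CPM), and Rell1 (138 and 73.0 CPM). Among the higher genes were Ramp3, a partner of the adrenomedullin receptor (59.0 and 103 CPM), the MHC class I gene H2-Q7 (155 and 251 CPM), Anxa2 (706 and 1090 CPM), Vwa1 (126 and 192 CPM) and Myct1 (214 and 324 CPM).

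Fkbp4, Hspb1 and P4ha1 were higher in knockout endothelial cells in both operations. Fkbp4, a cochaperone of steroid receptors, stood at 71.5 and 121 CPM after ligation and 69.7 and 124 CPM at sham. Hspb1, a small heat shock protein, stood at 1030 and 1702 CPM and at 905 and 1669 CPM. P4ha1, a collagen prolyl hydroxylase, stood at 50.5 and 92.6 CPM and at 39.1 and 90.5 CPM. Serpinh1, the collagen chaperone, stood at 402 and 618 CPM after ligation and, not called, at 303 and 409 CPM at sham. Of 19 heat shock genes 2 were higher and 1 lower after ligation, against 10 higher and 0 lower at sham, and the near-identical pair Hspa1a and Hspa1b failed the barcode rule. The 10 neutrophil markers in endothelial cells summed to 368 and 947 CPM with none at 0, and of the granule and alarm list measured there 5 of 12 were higher, with a median of 1.02. These RNAs are at their highest in neutrophils, whose share was higher in the knockout library, and their part in other endothelial results was not tested.

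Fibroblasts of the knockout had lower clock genes, lower immediate-early genes and lower genes of the adventitial (outer vessel wall) type, beside higher protein-folding genes. Dbp, a clock output factor, stood at 31.8 CPM in the wild type and 7.67 CPM in the knockout, and Pi16, a marker of adventitial fibroblasts, at 630 and 282 CPM. Manf rose from 494 to 922 CPM. Collagen genes were near level, with Col1a1 at 828 and 864 CPM and Col3a1 at 1116 and 1190 CPM. In this class 129 of 8246 measured genes were higher (1.56%) and 768 lower (9.31%), with a median of -0.11. Scaled to the median gene the split was 253 higher and 464 lower. At sham 341 of 9962 were higher (3.42%) and 271 lower (2.72%).

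The count of lower genes depended on which cells were called fibroblasts. When the 2 libraries were clustered alone, or cells were limited to 10% mitochondrial UMIs, the Cxcl5 and Ptx3 cells no longer carried the name, and 265 and 251 genes were lower. Each of the 13 named genes measured in both fibroblast clusters had the same direction in both. The 10 neutrophil markers summed to 598 and 1212 CPM in fibroblasts with none at 0, and their part in these results was not tested.

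The circadian clock genes that peak near Dbp are driven by CLOCK and BMAL1 through the E-box CACGTG, and the stretches of those with an exact match are shown for that reason. Searched on both strands, the motif was found for 4 of 9 list members with a RefSeq promoter, against 7.24% of 27025 promoters. The stretches on GRCm38.p6 are Ciart at chr3:95882237-95882374 (-), Per1 at chr11:69098753-69098818 (+), Tef at chr15:81802516-81802581 (+) and Bhlhe41 at chr6:145865538-145865603 (-), with the E-box in capitals.
Ciart: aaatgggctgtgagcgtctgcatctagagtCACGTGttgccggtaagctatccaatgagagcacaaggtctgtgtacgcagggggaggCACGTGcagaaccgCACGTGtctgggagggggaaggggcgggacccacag
Per1: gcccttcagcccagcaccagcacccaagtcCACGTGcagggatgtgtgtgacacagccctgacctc
Tef: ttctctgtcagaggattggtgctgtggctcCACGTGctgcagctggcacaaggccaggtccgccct
Bhlhe41: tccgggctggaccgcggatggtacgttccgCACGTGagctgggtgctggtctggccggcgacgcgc

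In fibroblasts 8 of 8 measured genes of this phase were lower after ligation, with a median of -1.35, and 7 of 9 were lower at sham, with a median of -1.50. The log2 ratio of Dbp was -2.05 (-2.85 to -1.32), from 82 and 19 UMIs in 45 and 17 cells, and its sham levels were 175 and 28.8 CPM. Nr1d1, a repressor of the clock, stood at 90.8 and 25.4 CPM, Tef at 34.1 and 11.3 CPM, Per1 at 36.8 and 15.3 CPM and Bhlhe41 at 18.6 and 6.87 CPM. At sham Nr1d1 stood at 166 and 55.3 CPM. The counts after ligation are low, and the direction was the same in all 8 genes.

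Genes of the opposite phase were mostly near level after ligation. Of the 4 measured in fibroblasts 1 was higher, Nfil3 (16.7 and 31.5 CPM), and Arntl, which encodes BMAL1, was not called at 26.4 and 27.9 CPM, while 5 of 5 were higher at sham with a median of 1.43. In endothelial cells 4 of 5 Dbp-phase genes were lower after ligation, with Dbp at 23.8 and 6.37 CPM and Per1 at 45.9 and 18.1 CPM, and 10 of 10 at sham, with a median of -1.92. The Dbp gene begins 371 kb beyond the end of Trpm4 on chromosome 7. Of the 57 genes within 5 Mb of Trpm4 measured in fibroblasts, 2 were lower, Dbp among them, and 2 higher, with a median of 0.07. In endothelial cells 3 of 59 were lower, Dbp among them, and 3 higher, with a median of 0.07. Over all measured genes 9.31% were lower and 1.56% higher in fibroblasts, and 6.05% and 2.22% in endothelial cells. The time of day of sampling is not given in the sources used here, and its part was not tested.

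Genes of the adventitial type were lower after ligation, and at sham none was lower; the difference between the operations was not tested. Dkk3, a secreted glycoprotein, went from 107 to 40.0 CPM, Cd55, a complement shield, from 167 to 61.0 CPM, Gfpt2, an enzyme of hexosamine synthesis, from 332 to 129 CPM and Ly6c1 from 178 to 79.2 CPM. Of 10 measured members 5 were lower and 0 higher, with a median of -1.16, against 3 higher and 0 lower of 11 at sham, with a median of 0.53. In the Clec3b and Dcn cluster alone 5 of 10 were lower, with a median of -0.69. This list, too, was drawn up after values had been seen. At resolution 2 a fibroblast cluster led by Dkk3, Wif1 and Ccl19 held 30 and 12 cells after ligation and 65 and 131 at sham. Its part in these values was not tested. The other low genes of the class included Tmem100, a membrane protein of BMP signalling (108 and 21.8 CPM, in 61 and 23 cells), Enc1 (140 and 56.1 CPM), the adhesion receptor Adgrd1 (105 and 44.4 CPM) and Gm12840 (389 and 96.5 CPM).

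Immediate-early genes were lower in 11 of 23 cases and higher in 0, with a median of -0.59 after ligation and 0.14 at sham. Fos stood at 159 and 56.6 CPM, Egr1 at 351 and 150 CPM, Klf4 at 255 and 88.1 CPM and Nr4a1 at 79.5 and 30.7 CPM. The median was -0.33 in the Clec3b and Dcn cluster and -0.43 in the Cxcl5 and Ptx3 cluster, and -0.28 when the 2 libraries were clustered alone.

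Secretory pathway genes stood on the other side. Manf had a log2 ratio of 0.90, Sdf2l1 went from 65.9 to 136 CPM and Creld2 from 101 to 187 CPM, all 3 being targets of the response to unfolded protein. Fkbp11 went from 126 to 223 CPM and Serpinh1, the collagen chaperone, from 678 to 1148 CPM. Of the 20 folding genes 3 were higher, 0 lower and all 20 had a ratio above 1, with a median of 0.35. In the Clec3b and Dcn cluster 9 of 20 were higher, with a median of 0.50, and in the Cxcl5 and Ptx3 cluster 2 of 20, with a median of 0.14. The folding list was drawn up after its members had been seen to differ, so its counts and medians only describe it. Manf and Creld2 were called in opposite directions in fibroblasts and neutrophils. Gstp1, a glutathione transferase that was also higher in neutrophils, macrophages and endothelial cells, went from 188 to 412 CPM and Meox1, a transcription factor of activated fibroblasts, from 91.5 to 155 CPM, the latter also higher at sham (87.0 and 186 CPM).

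Of 24 measured fibroblast alarm genes 3 were lower and 0 higher, a share of lower calls near the 9.31% of all genes. Cxcl5, a neutrophil-attracting chemokine, fell from 1701 to 819 CPM, Cxcl14 from 555 to 279 CPM and Has2, a hyaluronan synthase, from 62.8 to 24.6 CPM. Timp1, an inhibitor of matrix proteases, was not called, at 2122 and 3160 CPM, although the cluster it leads made up 30.2% of wild-type and 41.6% of knockout fibroblasts. In the Cxcl5 and Ptx3 cluster 1 of 23 alarm genes was lower. Of 32 matrix genes 2 were lower, Timp3 (531 and 327 CPM) and Thbs1 (430 and 266 CPM), and 0 higher.

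**Figure D4:**
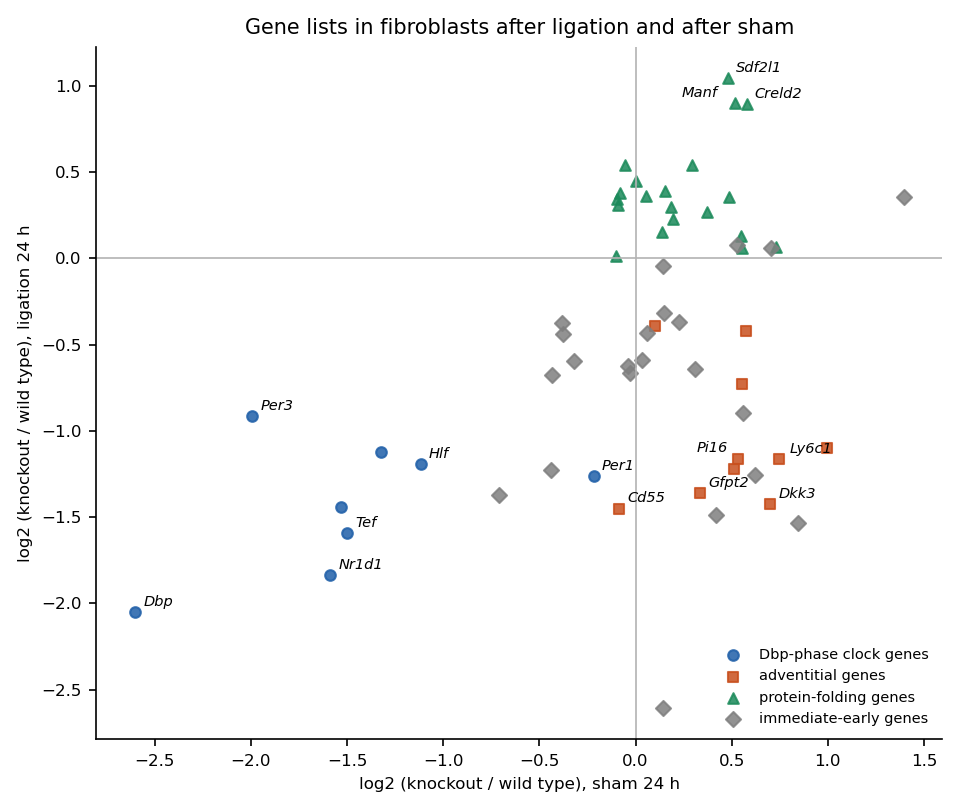
Log2 ratio of knockout to wild type in fibroblasts after ligation (vertical) against that at sham (horizontal) for genes measured in both: Dbp-phase clock genes (circles), adventitial genes (squares), protein-folding genes (triangles) and immediate-early genes (diamonds). Clock genes lie at lower left with Dbp at -2.60 and -2.05, and Dkk3 lies at 0.70 at sham and -1.43 after ligation.

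B cells were compared with 105 wild-type and 127 knockout cells, in which 39 of 1736 measured genes were higher (2.25%) and 151 lower (8.7%). Scaled to the median gene the split was 74 higher and 99 lower. At sham, with few B cells, 3.71% of 512 genes were higher and 0.195% lower. Apoe, a lipid carrier that macrophages make in great amounts, stood at 777 and 3488 CPM, in 42 and 65 cells, with a log2 ratio of 2.17 (1.98 to 2.36). The 22 monocyte and macrophage markers summed to 1502 and 4202 CPM in B cells, with 11 and 3 of them at 0 and Apoe leading, and their part in this gene was not tested. H2-Eb2, an MHC class II gene that the list of these genes does not hold, went from 33.8 to 106 CPM and Selenoh, a selenoprotein, from 36.6 to 112 CPM. Pdcd4, a repressor of translation, fell from 461 to 179 CPM and Jmjd1c, a histone demethylase family member, from 200 to 67.1 CPM. Of the 9 measured members of the MHC class II list none was called, with a median of 0.39.

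Among 73 and 87 T, NK and innate lymphoid cells, 31 of 1446 measured genes were higher (2.14%) and 94 lower (6.5%), against 3.23% and 1.38% at sham. Klrd1, a receptor chain of NK cells, stood at 152 and 283 CPM and the RNA AW112010 at 615 and 1178 CPM. The sham cells of this class numbered 26 and 29, and erythroid markers summed to 99349 and 57974 CPM in them.

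Among 51 and 62 smooth muscle cells, 105 of 2403 measured genes were higher (4.37%) and 144 lower (5.99%), against 1.81% and 3.81% at sham. Neutrophil markers summed to 527 and 4600 CPM and monocyte and macrophage markers to 131 and 464 CPM in these cells, and their part in the calls was not tested. These sums were not held to the barcode rule. In knockout cells a single barcode held 57.0% of the 746 S100a8 UMIs, and a single barcode held 60.3% of the 73 Chil3 UMIs. In wild-type cells a single barcode held 39.1% of the 46 S100a8 UMIs. Tcim stood at 126 and 358 CPM and Fkbp4, a cochaperone that was also higher in endothelial cells, at 74.7 and 182 CPM. Tgm2, a transglutaminase, fell from 261 to 88.1 CPM.

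Few genes were called in the same direction in all 5 classes with at least 100 cells in each library. Gm10076, annotated as a long non-coding RNA, was higher in all of them, with 1342 and 2664 CPM in macrophages. Gm10076 lies at chr14:105681828-105682211 and Gm42418 at chr17:39846958-39848788 in GENCODE M21 (GRCm38). Hnrnpa0, an RNA-binding protein (186 and 99.6 CPM in macrophages), and Gm42418, which overlaps ribosomal RNA, were lower in all of them. Gm42418 stood at 32982 and 11388 CPM in macrophages after ligation and at 23043 and 32747 CPM at sham. Lars2, which encodes the mitochondrial leucyl-tRNA synthetase, and Hypk were lower in all 4 classes other than B cells. Gstp1, Wdfy1, Hist2h2aa1, Ftl1-ps1 and 1810009A15Rik were higher in the same 4 classes.

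Long genes had lower ratios than short ones in every class after ligation. With measured genes split by the summed length of their exons, the median log2 ratio of the shortest and of the longest of 3 equal groups was 0.10 and -0.30 in macrophages, 0.09 and -0.21 in endothelial cells and 0.07 and -0.28 in fibroblasts. In neutrophils it was 0.16 and -0.04 and in B cells 0.06 and -0.28. The shortest group held 128 and the longest 411 of the lower calls in macrophages, and 116 and 403 in fibroblasts. At sham the same medians were 0.00 and 0.05 in macrophages and 0.01 and -0.03 in fibroblasts. They were -0.03 and -0.08 in endothelial cells and -0.08 and 0.03 in neutrophils. In smooth muscle they were 0.17 and -0.16 after ligation and 0.03 and -0.16 at sham, where 30 and 120 genes were called lower. The lower calls moved with exon length after ligation in these classes except neutrophils (135 and 132). The part of exon length in any single gene was not tested.

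**Figure D5:**
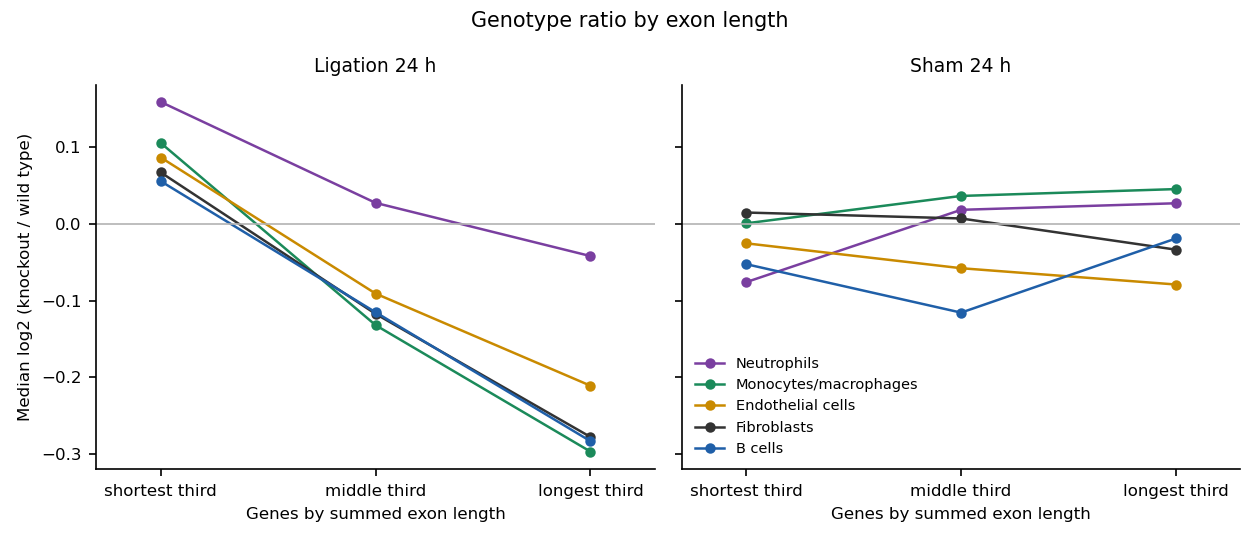
Median log2 ratio of knockout to wild type over the measured genes of the shortest, middle and longest of 3 equal groups by summed exon length, in 5 cell classes after ligation (left) and at sham (right). After ligation the medians go down with length in each class, from 0.10 to -0.30 in monocytes and macrophages, and at sham those of macrophages go from 0.00 to 0.05.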

How the data were processed

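The authors deposited whole UMI counts per gene and barcode for each library, made with Cell Ranger 6.0.0 on mm10 per the submitters' processing notes. These counts were used as deposited, and no per-sample column was left unassigned. Cells with at least 200 genes and at most 20% mitochondrial UMIs were kept, and the highest Scrublet scores (scanpy 1.11.5) were removed at 0.8% per 1000 deposited cells, 101 wild-type and 394 knockout cells. Counts scaled to 10000 per cell, 2000 variable genes, 30 principal components and 20 neighbours gave Leiden clusters at resolution 1 over all 6 libraries, named from markers, with 4 unnamed. Gene levels are class sums scaled to 1000000 UMIs (CPM). Ratios have the exact conditional interval of a pair of Poisson counts, shares the exact (Clopper-Pearson) and their differences the Newcombe interval, all at 95%. A count of 0 is read as up to 3 counts. PCR duplicates are collapsed by UMI, and intervals cover counting error only.

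Named genes are the 8 highest and 8 lowest called ratios of a class with at least 100 CPM and at least 0.25 of the level in the highest class (4 each in classes of 50 to 100 cells), the 4 highest and lowest also called at sham, those called in every class, and list members; some are not reported here. Of 29 gene lists and 2 added ones, members and lists were chosen with earlier results of these data known. Exon lengths came from GENCODE M21 (GRCm38), which matched 99.6% of gene identifiers. The calling rules were run on simulated counts for monocytes and macrophages and for fibroblasts only. Nearly all changed genes were recovered there, and some unchanged genes were called too. The spread between animals is unknown, so this simulation cannot tell how many calls in the real libraries are wrong. With 1 library a group there is no test, and alternatives are given in the closing section. Hearts at 72 h were not analysed here beyond clustering.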

Additional observations from a re-analysis of the deposited data

Results flagged for a closer look

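The 9 named genes below were called in opposite directions after ligation and at sham, and with 1 library a group this difference was not tested. In neutrophils Cish had a log2 ratio of -1.15 after ligation and 1.05 at sham. In monocytes and macrophages the ratios were 0.70 and -0.71 for Gngt2 and -1.49 and 1.88 for Serpinb2, whose UMIs came from 77 and 105 cells after ligation. Pabpc1 in endothelial cells had -0.94 and 0.86. In fibroblasts Fkbp11 had 0.82 and -0.64, Tmem100 -2.31 and 0.74, Klf4 -1.53 and 0.85, Dkk3 -1.43 and 0.70, and Adgrd1 -1.24 and 0.71. Klf4, Dkk3, Adgrd1 and Tmem100 are all lower after ligation and higher at sham in this class. At resolution 2 a fibroblast cluster led by Dkk3, Wif1 and Ccl19 held 30 wild-type and 12 knockout cells after ligation. At sham it held 65 and 131 cells, and its part in these 4 genes was not tested. Among the 9645 genes measured in both operations in monocytes and macrophages, 58 were lower after ligation and higher at sham. This is 8.30% of the 699 lower after ligation and 21.5% of the 270 higher at sham. Beside these, 12 were lower in both and 0 higher in both. Over all measured genes of the class, 7.41% were lower after ligation and 3.41% higher at sham. In fibroblasts 37 genes were lower after ligation and higher at sham (4.82% of 767 and 15.7% of 235), beside 28 that were lower in both and 10 that were higher in both. In this class 8161 genes were measured in both operations. Over all its measured genes, 9.31% were lower after ligation and 3.42% higher at sham.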

How the results depend on the processing

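No paired analysis was possible because each group has 1 library. All values rest on 1 pool of cells for each genotype, so the spread between animals is unknown, and low-count genes such as Dbp rest on few UMIs. Classes under 100 cells hold few measured genes. Over the alternative runs, 911 comparisons of named genes kept direction and size, and 101 moved without a change of direction. These comparisons do not cover every gene or list member given above. For the main results, class shares, counts and list medians kept direction and size at Leiden resolution 0.5 and 2. They also did so without the top barcode of each gene. The split of neutrophils, macrophages and fibroblasts into clusters did differ between genotypes at resolution 2. The changes of sign below are in list medians that are not described above, and their cause was not tested.

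With the 2 libraries clustered alone, the immediate-early median was -0.39 in monocytes and macrophages and -0.28 in fibroblasts, and 265 genes were lower in fibroblasts. Medians that changed sign were matrix genes in macrophages (0.053) and, in fibroblasts, interferon-induced (0.058), resident macrophage (0.28), tissue-aged neutrophil (0.13), angiogenic (0.21) and translation genes (-0.011). At most 10% mitochondrial UMIs gave 251 lower genes and an immediate-early median of -0.28 in fibroblasts. Sign changes there were in interferon-induced (0.068), resident macrophage (0.27), tissue-aged (0.13), angiogenic (0.20) and translation genes (-0.0054). In endothelial cells the median of the RNAs of the mitochondrial genome, which this limit acts on, changed sign (-0.016). In both settings the Cxcl5 and Ptx3 cells left the fibroblast class. Without doublet removal the immediate-early median in macrophages was -0.44, and the classical monocyte list in fibroblasts changed sign (1.09), as it did at a minimum of 20 counts (1.02) and, chosen after seeing the data, without cells holding a platelet marker UMI (0.084).

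Scaling to the median gene gave 357 higher and 370 lower genes in macrophages, 253 and 464 in fibroblasts and 74 and 99 in B cells, an immediate-early median of -0.38 and a folding gene median of 0.031, of changed sign, in macrophages. Means over cells gave 319 higher genes for endothelial cells and 279 for fibroblasts. Weighting clusters equally gave an MHC class II median of 0.065 in macrophages and 488 lower genes in fibroblasts. A minimum of 20 counts gave 80 higher and 269 lower genes in B cells. A minimum of 200 counts gave 229 higher and 207 lower in neutrophils, 72 and 483 in macrophages, 44 and 228 in fibroblasts, 45 and 149 in endothelial cells, 3 and 15 in B cells, and an adhesion gene median of 0.053, of changed sign, in macrophages. A fold of 2 gave 128 and 81, 29 and 110, 20 and 154, 29 and 73, and 10 and 46 in the same order. Among cells with at least 1500 UMIs the share differed by 15.1 points for neutrophils and -0.15 for platelets. Without neutrophils and platelets in the denominator, an alternative chosen after seeing the data, it differed by 16.4 points for monocytes and macrophages and -11.2 for endothelial cells.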

Other observations

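After ligation 4 genes were called in opposite directions in different classes. Manf was higher in fibroblasts and B cells and lower in neutrophils, Creld2 was higher in fibroblasts and lower in neutrophils, Tppp3 was higher in endothelial cells and lower in fibroblasts, and Gm45716 was higher in neutrophils and lower in endothelial cells.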
